A study of Mus musculus with 6 samples.

Results

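Oxidative phosphorylation genes of the nuclear genome were described by the open chromatin at their gene ends in mouse urothelium with and without Stag2. The members were the protein-coding genes on nuclear chromosomes of the mm10 mouse genome whose symbol begins with Nduf, Uqcr, Cox4, Cox5, Cox6, Cox7, Cox8 or Atp5, together with Sdha, Sdhb, Sdhc and Sdhd. This rule took 96 of 21887 protein-coding genes: 41 subunits or paralogues of complex I, 8 complex I assembly factors (Ndufaf genes), 4 genes of complex II, 8 of complex III, 18 of complex IV and 17 of complex V.

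The respiratory chain sits in the inner mitochondrial membrane. Complexes I and II pass electrons from NADH and succinate to ubiquinone, complex III passes them on to cytochrome c, complex IV hands them to oxygen, and complex V uses the resulting proton gradient to make ATP. A few core subunits of complexes I, III, IV and V are encoded by mitochondrial DNA, whereas all other subunits and every subunit of complex II are nuclear. Transcription factors of the NRF1, GABP (an ETS factor), ERR and YY1 families are known regulators of these nuclear genes, and several complex IV subunits exist as alternative isoforms that are used mainly in muscle, testis or lung.

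The study measured accessible chromatin by ATAC-seq, in which a transposase cuts and tags open DNA. There were 3 Stag2-WT and 3 Stag2-KO libraries, each labelled a separate biological replicate. Stag2 is an X-linked cohesin subunit, and the study asked how its loss acts on quiescent urothelial cells. All the mice, Stag2-WT included, received a tamoxifen (TMX) diet and all libraries are labelled 1 week after induction. Viable cells were sorted as GFP+ and DAPI- from peeled urothelium, 50000 per condition, and all 6 libraries carry the same batch label, 1. No label names the Cre driver, the sex or age of the mice or the number of animals behind a library. Every p-value and standard error below rests on 3 libraries a group, with each variance moderated by limma towards a trend over all gene ends. They are therefore not the plain scatter of the libraries at that gene end.

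Each library came as a list of called intervals with a fold over the local background at the summit. The lists held 181987 to 299636 entries and 149153 to 260462 distinct intervals. The first Stag2-KO library had the longest list, which began at a −log10 p of 3.00 against 2.00 in the others. Of the best 50000 intervals, 20.52 to 21.31% lay within 1 kb of a protein-coding gene end in Stag2-WT and 21.6 to 23.53% in Stag2-KO, and the part of this difference in the gains below was not tested beyond the refit with this share as a covariate. The share did not overlap between the groups and comes from the same ranked intervals, so that refit cannot fully separate it from genotype. Stag2 itself had an interval at ranks 29586, 34076 and 28720 in Stag2-WT and 16287, 20829 and 26329 in Stag2-KO, which does not check the deletion because its position is not given. Of 14 urothelial markers, 7 were among the best 50000 in all 6 libraries (Upk1b, Upk2, Upk3a, Krt20, Cdh1, Elf3 and Gata3). Upk1a, Foxa1, Pparg, Epcam and Grhl3 were not. Krt5 was weak, at ranks of 47306 to 94506, and Trp63 had no interval at its span ends. The same count was 0 of 5 for fibroblast, 0 of 4 for endothelial, 1 of 4 for smooth muscle, 1 of 5 for leukocyte, 2 of 4 for striated muscle, 2 of 2 for brown fat and 0 of 3 for testis markers. Ptprc, the pan-leukocyte marker, had no interval.

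Members were scored by rank: intervals of a library were ordered by fold, with rank 1 the highest, and a gene took the best interval within 1 kb of the better end of its annotated span. Ranks run to 100000, and a gene end without an interval has rank 100001. The sequences around these starts are shown first, because matches to the motifs of the known regulators were frequent among them. Of the 96 members, 78 have a promoter of 300 bases (250 before and 50 after the start site) in the RefSeq table of build GRCm38.p6, which shares its chromosome coordinates with mm10. Positions below count from 0 at the start site, with negative numbers upstream.

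The NRF1 core GCATGCGC, searched on both strands, matched 12 of 78 member promoters (15.4%), against 3.63% of all 17492 promoters and 5.88% of the 7642 promoters of genes open in all 6 libraries. It occurred in every class: 3 complex I subunits, 2 assembly factors, 1 gene of complex II, 2 of complex III, 1 of complex IV and 3 of complex V. The following stretches of 40 bases, read 5′ to 3′ along the gene's strand, show 7 of these matches with the matched letters in capitals. In Ndufa11, Ndufaf4, Cox6a1, Atp5k and Atp5g2 the core also matches on the opposite strand 2 bases away, so the capitals run over both.
Ndufa6 (chr15:82354351-82354390, minus strand): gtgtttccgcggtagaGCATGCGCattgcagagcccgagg
Ndufa11 (chr17:56717686-56717725, plus strand): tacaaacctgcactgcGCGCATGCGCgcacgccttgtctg
Ndufaf4 (chr4:24897954-24897993, plus strand): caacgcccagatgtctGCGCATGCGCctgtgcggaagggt
Sdhb (chr4:140961201-140961240, plus strand): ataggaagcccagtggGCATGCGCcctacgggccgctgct
Cox6a1 (chr5:115349097-115349136, minus strand): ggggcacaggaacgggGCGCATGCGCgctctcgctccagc
Atp5k (chr5:108434426-108434465, minus strand): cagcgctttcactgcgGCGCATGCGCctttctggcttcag
Atp5g2 (chr15:102671066-102671105, minus strand): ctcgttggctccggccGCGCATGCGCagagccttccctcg

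The YY1 motif AAGATGGC matched 11 of 78 member promoters (14.1%), against 3.24% of all promoters, 5.12% of those of open genes and 17.4% of those of the mitochondrial ribosome. Complex I subunits held 7 of the 11, and they make up 35 of the 78 promoters searched. In 9 of these 11 promoters (81.8%) the match lay on the gene's own strand after the start site, against 42.9% of the 567 promoters of all genes that hold the motif. This position was not counted for open genes or for the mitochondrial ribosome. The letters contain ATG, which reads as a start codon when in sense. The 30-base stretches below, with the motif in capitals, are shown because 8 members of 2 complexes carry it at nearly the same place just inside the transcript.
Ndufa3 (chr7:3617384-3617413, plus strand): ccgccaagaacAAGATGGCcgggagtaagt
Ndufc1 (chr3:51408915-51408944, minus strand): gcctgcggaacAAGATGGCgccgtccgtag
Ndufa9 (chr6:126849097-126849126, minus strand): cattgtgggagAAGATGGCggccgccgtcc
Ndufb8 (chr19:44555393-44555422, minus strand): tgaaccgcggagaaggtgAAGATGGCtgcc
Ndufs4 (chr13:114388045-114388074, minus strand): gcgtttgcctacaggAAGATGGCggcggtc
Ndufs6 (chr13:73328433-73328462, minus strand): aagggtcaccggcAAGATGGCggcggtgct
Ndufs7 (chr10:80249462-80249491, plus strand): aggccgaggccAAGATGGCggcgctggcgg
Atp5j2 (chr5:145191500-145191529, minus strand): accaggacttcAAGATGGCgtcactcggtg

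The ERR motif AAGGTCA matched 8 member promoters (10.3%), against 3.98% of all and 2.91% of open promoters. The ETS core CCGGAAG matched 19 (24.4%), which is above all promoters (12.1%) and close to those of open genes (20.8%). At least 1 of these 4 motifs was present in 39 of 78 member promoters, in 20.9% of all and in 31.2% of open promoters. At least 2 of the 4 were present in 9 members (11.5%), namely Atp5e, Atp5j, Atp5k, Atp5l, Cox6a1, Ndufaf8, Sdhb, Sdhd and Uqcr11, against 1.89% of all and 3.39% of open promoters. Genes of the mitochondrial ribosome, a set close to the members in openness, had a higher share for the ETS core and the YY1 motif and lower shares for the NRF1 core and ERR. Of their 69 promoters, 11.6% held the NRF1 core, 37.7% the ETS core and 5.80% the ERR motif. Among 70 cytosolic ribosomal promoters the shares of NRF1, ETS and ERR were 2.86%, 37.1% and 5.71%, and that of YY1 was 7.14%. The SP box GGGCGG went the other way, with 43.6% of members against 46.9% of all and 64.7% of open promoters. The NFY box, spelled CCAAT, was found in 43.6% of members, 38.9% of all and 41.8% of open promoters. For the cyclic AMP response element TGACGTCA the shares were 5.13%, 2.28% and 3.56%. The TATA box, searched as TATAAA, was present in 10.3% of members, which is below all promoters (13.2%) and above open ones (6.88%). The CHR element TTTGAA was present in 11.5% of members, 16.4% of all and 11.7% of open promoters, and the E2F site, searched as TTCCCGC, in 8.97%, 6.07% and 9.09%. These shares are descriptions of letters in a window, with no test, and motifs were counted separately where they overlap. Median GC content was 58.0% in members and 60.7% in promoters of open genes.

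**Figure D1:**
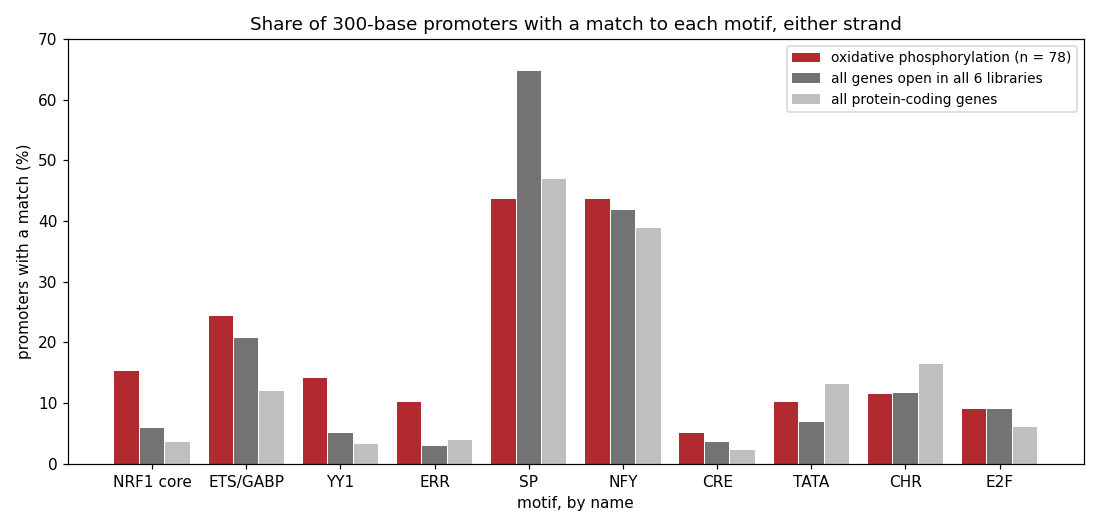
Share of 300-base promoters with at least 1 match on either strand for 10 motifs (x axis, by name), in percent (y axis), for 78 oxidative phosphorylation genes, 7642 genes open in all 6 libraries and 17492 protein-coding genes. Bars of the members are higher for NRF1 core, YY1 and ERR (15.4, 14.1 and 10.3%) and lower for SP (43.6%) than those of open genes (5.88, 5.12, 2.91 and 64.7%).

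The 250 bases before the start site are given for 3 members that stand for different states in these libraries. Sdhb, the iron-sulfur subunit of complex II, was open in all libraries and has its summit at the start. Ndufb4, an accessory subunit in the membrane arm of complex I, had a middling rank and the lowest p of all members for a gain in Stag2-KO. Cox8b, a complex IV isoform of muscle and brown fat, had no interval at its ends or in its span in any library. Capitals mark the NRF1 core in Sdhb and the ERR motif in Ndufb4, while Cox8b has no match to any of the first 4 motifs in this stretch.
Sdhb (chr4:140961021-140961270, plus strand): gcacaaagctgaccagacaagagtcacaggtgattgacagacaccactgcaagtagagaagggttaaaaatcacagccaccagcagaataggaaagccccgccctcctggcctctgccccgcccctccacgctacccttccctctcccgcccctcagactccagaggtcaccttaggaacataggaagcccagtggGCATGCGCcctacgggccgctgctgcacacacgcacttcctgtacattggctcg
Ndufb4 (chr16:37654369-37654618, minus strand): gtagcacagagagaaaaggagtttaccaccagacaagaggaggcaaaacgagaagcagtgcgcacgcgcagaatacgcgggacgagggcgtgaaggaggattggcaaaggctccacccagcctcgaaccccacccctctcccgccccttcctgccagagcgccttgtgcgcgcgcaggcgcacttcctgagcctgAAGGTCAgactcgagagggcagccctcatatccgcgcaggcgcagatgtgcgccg
Cox8b (chr7:140900447-140900696, minus strand): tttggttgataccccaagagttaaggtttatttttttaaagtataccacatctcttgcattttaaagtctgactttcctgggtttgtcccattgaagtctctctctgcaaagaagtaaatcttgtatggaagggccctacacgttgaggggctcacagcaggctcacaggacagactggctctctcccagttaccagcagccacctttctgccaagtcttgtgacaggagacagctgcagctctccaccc

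Most members were open in every library. An interval among the best 50000 in all 6 libraries was found at 79 of 96 members (82.3%), against 9417 of 21887 protein-coding genes (43.0%). With the best 25000 the counts were 52 (54.2%) and 21.9%, and with the best 100000 they were 83 (86.5%) and 59.3%. Genes of the 2 ribosomes were similar: 64 of 78 mitochondrial ribosomal genes (82.1%) and 72 of 91 cytosolic ones (79.1%) passed the same limit. The median rank of the members was 15331, 21332 and 19942 in Stag2-WT and 12690, 18936 and 15826 in Stag2-KO. For all genes it was 49094, 51205 and 51942 in Stag2-WT and 40618, 41241 and 48238 in Stag2-KO. Both sets of medians were better in Stag2-KO than in the Stag2-WT library of the same number, but for the members the first Stag2-WT library was better than Stag2-KO libraries 2 and 3.

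**Figure D2:**
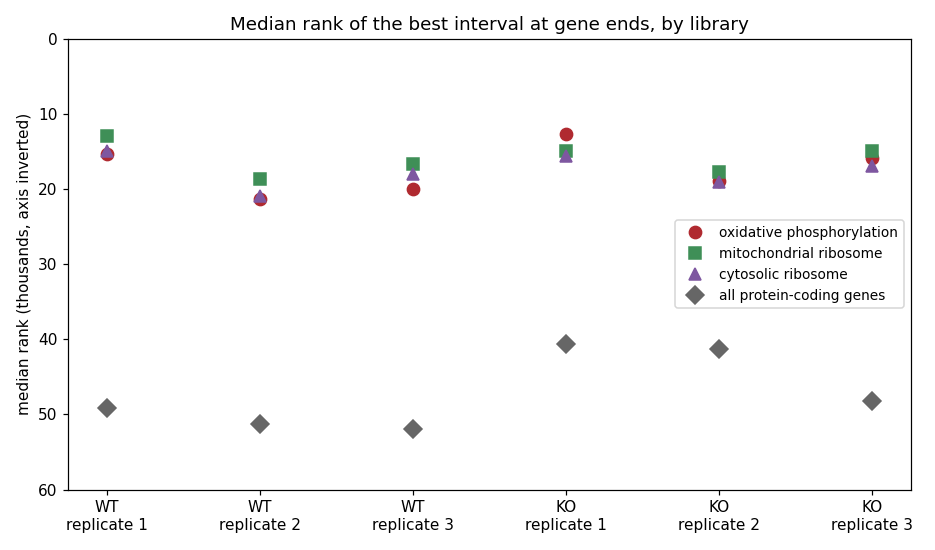
Median rank of the best interval at gene ends (y axis, in units of 1000 ranks, inverted so that stronger is up) in each of the 6 libraries (x axis) for the 96 members, 2 ribosomal gene sets and all protein-coding genes. The member medians lie between 12690 and 21332, near those of the ribosomal genes and above the 40618 to 51942 of all genes.

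Replicate 2 gave the members worse ranks than the other replicates in both genotypes. Of the 83 members with an interval in all 6 lists, 43 (51.8%) had their worst rank within both genotypes in replicate 2, against 40.7% of 12972 gene ends. Replicate 1 of Stag2-WT gave the best of all 6 ranks at 37 of 83 members (44.6%), against 27.4% of all gene ends. Folds themselves were higher in replicate 2 (median member fold 22.3 in Stag2-WT and 23.8 in Stag2-KO) than in the other libraries (16.9 to 20.8). Values of different libraries were therefore compared as ranks within a library.

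The fold is relative to a local background that differed between members. Its median at members was 19.6 to 33.1 reads deep across the libraries, close to the 17.8 to 30.6 at all gene ends, against a genome-wide background of 5.89 to 7.98. Order by fold and order by coverage could therefore differ, as in a pair chosen after its values were seen. In the first Stag2-WT library, Ndufb3 had a summit coverage of 342 over a local background of 12.2 and a fold of 26.1. Ndufaf3 had the higher coverage, 479, but over a background of 51.8, and so the lower fold, 9.10. Weak members could also have a high background, as Ndufb10 did at 42.5.

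Where a RefSeq start site lay within 1 kb of the scored end, most summits were close to it. Intervals were searched only within 1 kb of that end, so a short distance was partly fixed in advance. The summit of the best interval was placed against the start site for 68 of the 78 members with one, and starts farther from the scored end were left out. Member medians ran from −671.5 to 435.5 bp. The median over the 6 libraries lay at a median of −46 bp (quartiles −107 and −14 bp), within 100 bp of the start at 48 members and within 250 bp at 62. Summits of Sdha lay at −97 to −75 bp in the 6 libraries and those of Sdhb at 12 to 22 bp. Many members share their end with another gene: 43 of 96 (44.8%) had the end of another protein-coding gene within 1 kb of the scored end, against 16.5% of all genes. This was not particular to the members. The share was 48.7% for mitochondrial ribosomal genes, 37.5% for assembly and insertion factors outside the symbol rule and 18.7% for cytosolic ribosomal genes. Examples are Atp5j with Gabpa, which encodes the GABP alpha subunit, Sdhd with Timm8b, Ndufa7 with Rps28, Sdha with Ccdc127 and Ndufa5 with Asb15. At such an end the interval cannot be assigned to one of the genes.

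Complex I subunits spanned the whole range of ranks. Of the 41, 34 were open in all libraries, and the median rank was 12507 to 21013 across libraries. Ndufb3, an accessory subunit, had the best mean rank of the class, with 860, 2510 and 960 in Stag2-WT and 889, 3194 and 1368 in Stag2-KO. The genotypes overlapped there, and replicate 2 was the weakest library in each. Ndufa3 followed at 1357, 1814 and 1075 in Stag2-WT and 3269, 2221 and 1784 in Stag2-KO. The core subunit Ndufv1, which binds FMN and accepts electrons from NADH, ranked 1292, 9607 and 2705 in Stag2-WT and 3103, 8165 and 4131 in Stag2-KO.

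The weak end of complex I held Ndufb10, an accessory subunit, with ranks of 81554, 84082 and 92243 in Stag2-WT and 48969, 61079 and 69954 in Stag2-KO. Its groups did not overlap, but only 1 of its 6 intervals was within the best 50000. Ndufa4l2, a hypoxia-induced relative of Ndufa4, ranked 74256 at best, and Ndufb4c had an interval in 3 libraries. Ndufb4b had no interval at its span ends in any library and none in its span.

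All 4 genes of complex II and all 8 of complex III were open in every library. Complex II medians were 14008, 17596 and 16038 in Stag2-WT and 6634, 14024 and 10822 in Stag2-KO. In complex III, Uqcrc2, a core protein, was the strongest at 2626, 6645 and 2584 in Stag2-WT and 2407, 8131 and 3052 in Stag2-KO. The weakest of that class, Uqcr11, a small subunit, ranked 28681, 41969 and 34945 in Stag2-WT and 46867, 37112 and 33509 in Stag2-KO. Genotypes overlapped at both. Of the 8 assembly factors, 7 were open in every library. Ndufaf7, a methyltransferase, was the strongest of these at 672, 4731 and 1589 in Stag2-WT and 2634, 5126 and 828 in Stag2-KO. Ndufaf3 was the weakest, at 33166 to 52075.

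Complex IV stood lowest of the complexes, with 10 of 18 genes open in all libraries (55.6%) and library medians of 31046 to 37884. Its genes include most of the isoform pairs. Cox4i1 was open at ranks of 24023 to 34805, and its lung and hypoxia isoform Cox4i2 had an interval in 2 lists only, at 94632 and 97109. Cox6a1 was open at 18463 to 33441, while the heart and muscle isoform Cox6a2 had no interval. Cox8a was the strongest of the class, at 1456, 9609 and 2132 in Stag2-WT and 5160, 9596 and 2603 in Stag2-KO, while Cox8b and the testis isoform Cox8c had none at all.

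Other isoforms did not follow this division. Cox7a1, the heart and muscle form, ranked 23539, 35382 and 31220 in Stag2-WT and 25803, 21454 and 22538 in Stag2-KO, with summits at −57 to −4 bp from its start. Cox6b2, a testis form, ranked 26301 to 43113 at the end of its span that lies 1302 bp from its start, beside the ubiquitous Cox6b1 at 3018 to 9372. The X-linked Cox7b was weak, with ranks of 50791, 100001 and 73214 in Stag2-WT and 100001, 100001 and 93091 in Stag2-KO, and its testis relative Cox7b2 had no interval at its ends. Of 10 isoforms or extra copies that are known mainly from other tissues or under other symbols (Cox4i2, Cox6a2, Cox6b2, Cox7a1, Cox7b2, Cox8b, Cox8c, Ndufa4l2, Ndufb4b and Ndufb4c), 2 were open in all libraries. Without these 10, the share of open members was 77 of 86 (89.5%). That list was drawn up after the ranks had been seen.

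Cox5a, Cox7a2 and the delta subunit gene Atp5d also counted as closed, but their start sites lie inside the annotated span. At the RefSeq start, Cox7a2 ranked 2651, 5610 and 3093 in Stag2-WT and 1772, 3654 and 2616 in Stag2-KO. At its start, Cox5a ranked 12336, 20724 and 20537 in Stag2-WT and 5018, 12704 and 12332 in Stag2-KO. Atp5d ranked 34191, 57987 and 49165 in Stag2-WT and 33725, 52116 and 41547 in Stag2-KO. Scoring by span end therefore missed these 3 intervals. Of 78 members with a RefSeq start, 69 had it within 1 kb of the scored end and 9 did not. Ndufa13 and Ndufb6 were scored at ends 7857 and 8830 bp from their start, Ndufa13 beside the gene Yjefn3. When all genes were scored at start sites instead, 69 of the 78 members were open in every library. The 18 members without a RefSeq start are left out of this count, and the share of all genes at start sites is not given. It is therefore not comparable with the shares at span ends.

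Complex V was strong throughout, with 16 of 17 genes open in all libraries and library medians of 7808 to 17541. Atp5e, the epsilon subunit of the catalytic head, had the best mean rank of all members after Ndufb3, at 430, 4348 and 1209 in Stag2-WT and 1764, 4663 and 835 in Stag2-KO. The catalytic beta subunit gene Atp5b ranked 3939 to 12559 and the alpha subunit gene Atp5a1 16272 to 23919. All 3 genes for the membrane c ring were open, Atp5g1 at 7247 to 31361, Atp5g2 at 13030 to 24685 and Atp5g3 at 14956 to 27885, and these ranges overlap. The weakest open gene of the class was Atp5l, the g subunit, at 29390 to 46265.

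**Figure D3:**
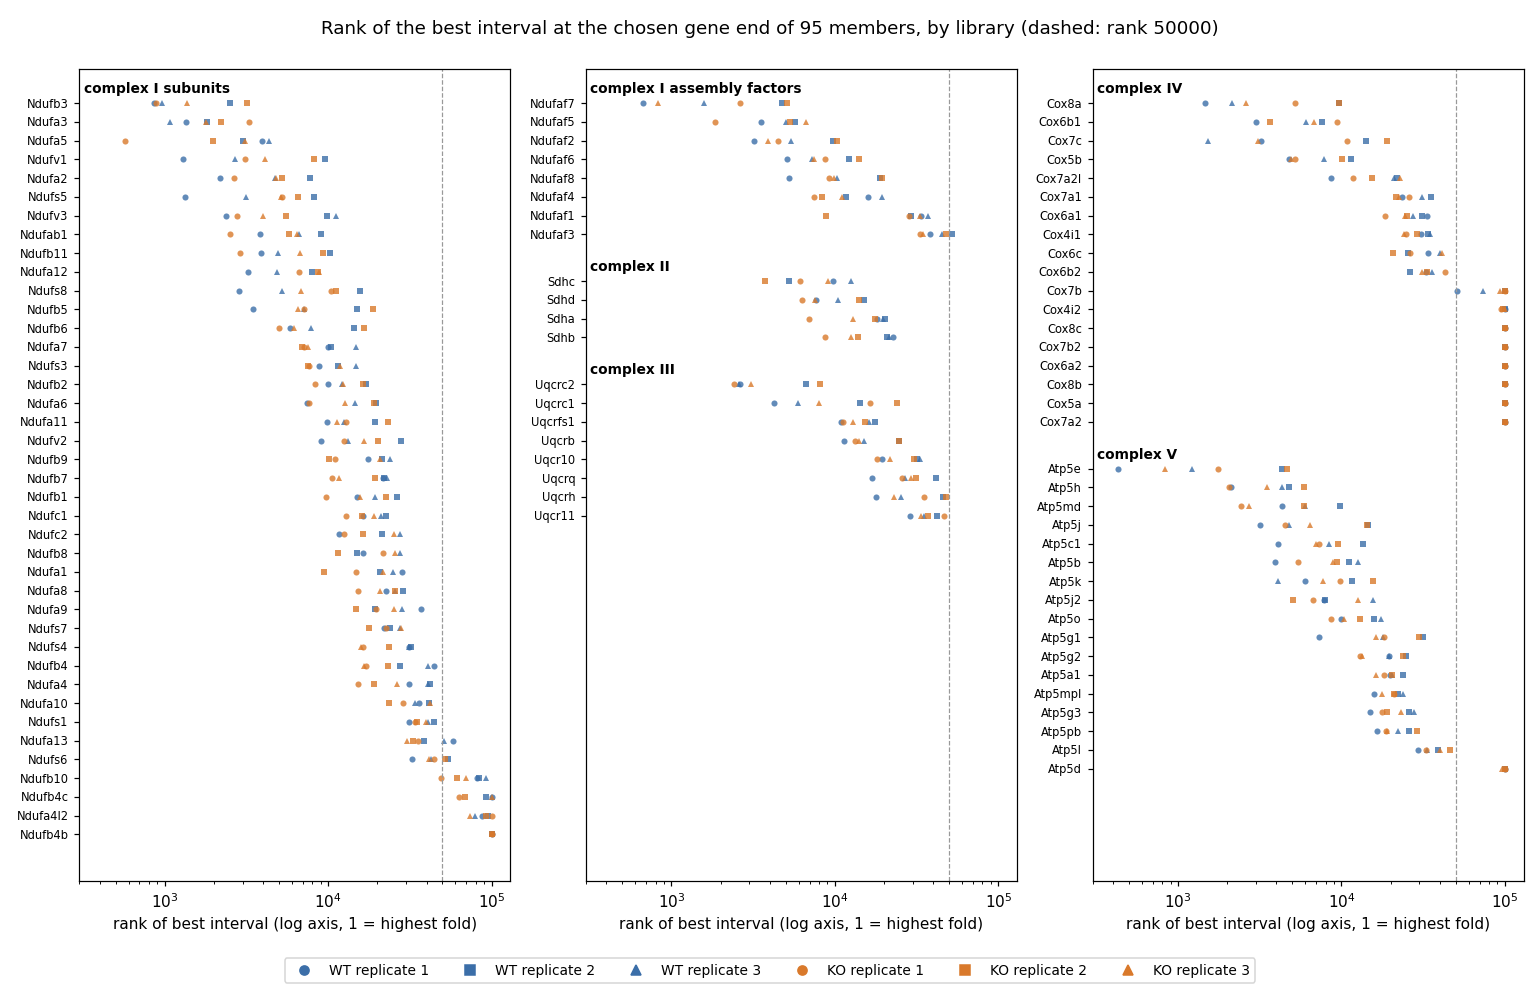
Rank of the best interval at the scored end of 95 of the 96 members (rows, grouped by complex), on a log axis with 1 the highest fold, in 3 Stag2-WT (blue) and 3 Stag2-KO (orange) libraries, with symbols for the replicate number. The points of most members lie left of the dashed line at rank 50000 in every library, and the exceptions are mainly complex IV isoforms at 100001.

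The comparison of Stag2-KO with Stag2-WT asked whether loss of Stag2 moved these gene ends in the order of accessibility. No member passed the test in either direction. The gain is the difference of mean −log2 rank, so that 1 means a rank number lower by 1 doubling in Stag2-KO. It was tested with limma over the 14290 gene ends with an interval in at least 3 lists, which 86 members passed. After Benjamini-Hochberg adjustment at 0.05, 0 of these 86 were called higher and 0 lower, against 3 (0.021%) and 7 (0.049%) of all gene ends. The lowest adjusted p of a member was 0.317. At an unadjusted p below 0.05 by limma, 6 members were higher and 0 lower, against 10.5% and 2.2% of all gene ends. With the replicate number as a block these were 14 and 3 (21.5% and 4.46% of all gene ends), and the lowest adjusted p was 0.108. Leaving out Stag2-KO replicate 3 raised the calls over all gene ends to 560 higher (3.92%) and 127 lower (0.889%), and leaving out Stag2-WT replicate 2 to 152 (1.06%) and 112 (0.784%), with 0 members among them in either case.

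The gains of the members were centred lower than those of all gene ends, with a median of 0.11 against 0.21, and 52 of 86 gains were positive against 68.9% of all. The median of the members changed sign with the setting: it was −0.11 with the share of intervals at gene ends as a covariate (all gene ends −0.02), −0.10 with each library centred on its median (all gene ends 0.00) and −0.02 without the second Stag2-WT library (all gene ends 0.14). The covariate did not overlap between the groups, so its part cannot be fully separated from that of genotype. The order of the medians also depended on single libraries: without Stag2-WT replicate 1 the members had the higher one (0.36 against 0.31, with 71 of 86 gains positive), and without Stag2-KO replicate 2 the medians were 0.24 and 0.25. Stag2-KO and Stag2-WT ranks did not overlap at 12 members, all higher in Stag2-KO, where 15.2% of all gene ends did so and 2.06% in the other direction. These were Ndufa4, Ndufa7, Ndufa13, Ndufb4, Ndufb7, Ndufb10, Ndufs4, Ndufaf4, Sdha, Sdhb, Cox4i1 and Cox6a1. At its RefSeq start site, 7857 bp from the scored end, Ndufa13 overlapped between groups (35869, 56087 and 42636 in Stag2-WT, 37234, 47946 and 37115 in Stag2-KO) and its gain was 0.12 in place of 0.56. The share of members without overlap is near the background.

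**Figure D4:**
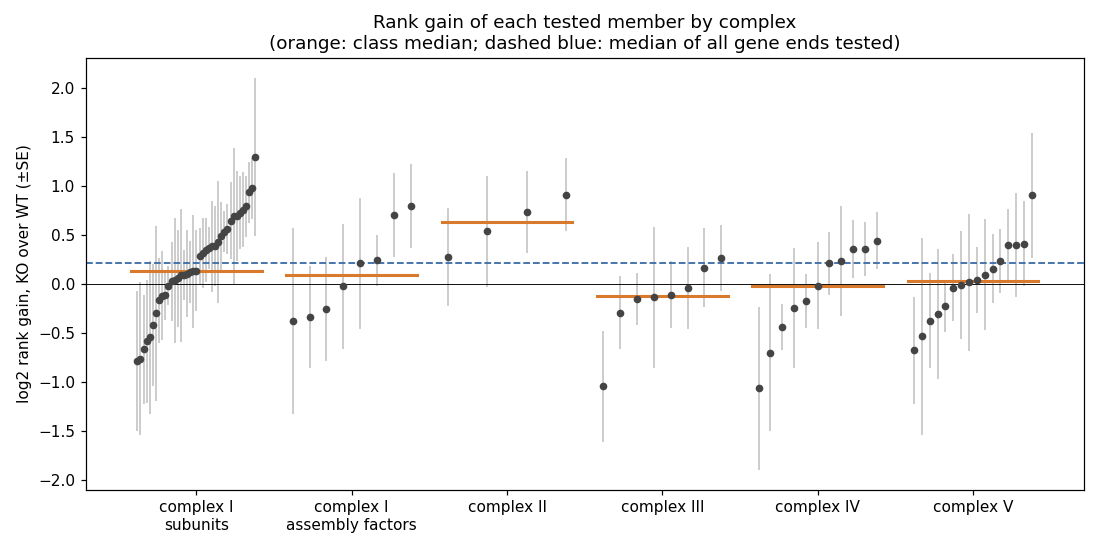
Log2 rank gain of Stag2-KO over Stag2-WT (y axis, points, with the standard error of the limma fit over 3 and 3 libraries) for the 86 tested members by complex (x axis), sorted within each class. Class medians (orange) run from −0.12 in complex III to 0.63 in complex II, and the dashed line is the median of all gene ends tested, 0.21.

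Within complex I, 28 gains were positive and 11 negative, with a median of 0.13. Ndufb4 ranked 44633, 27398 and 40677 in Stag2-WT and 17126, 23079 and 16616 in Stag2-KO. The groups did not overlap, and the gain was 0.97 ± 0.31 (SE, n = 3 and 3, limma adjusted p = 0.317). Ndufa4, which later work assigned to complex IV, ranked 31201, 41824 and 40683 in Stag2-WT and 15119, 19055 and 26541 in Stag2-KO, a gain of 0.93 ± 0.31 with the same limma adjusted p, 0.317. It shares its end with Phf14. Ndufs4, an accessory subunit known from inherited complex I deficiency, ranked 31136, 32208 and 31369 in Stag2-WT and 16224, 23523 and 15953 in Stag2-KO. Here the 3 Stag2-WT libraries lay close together and all had worse ranks than any Stag2-KO library, and the gain was 0.79 ± 0.31 (limma adjusted p = 0.341). Ndufa5, an accessory subunit, had the largest gain of any member, 1.30 ± 0.81 (limma adjusted p = 0.490), but its ranks of 3941, 3017 and 4353 in Stag2-WT and 571, 1968 and 3102 in Stag2-KO overlapped. It was named here for that size.

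The 2 complex I subunits with the lowest p among negative gains were accessory subunits with strong intervals. Ndufa12 ranked 3242, 8005 and 4884 in Stag2-WT and 6618, 8706 and 8827 in Stag2-KO (−0.67 ± 0.56). Ndufs5 ranked 1334, 8138 and 3124 in Stag2-WT and 5201, 6516 and 5163 in Stag2-KO (−0.79 ± 0.71). The groups overlapped at both. Among the assembly factors 4 gains were positive and 4 negative. Ndufaf4 ranked 16051, 11660 and 19394 in Stag2-WT and 7485, 8386 and 11054 in Stag2-KO (0.80 ± 0.43, limma adjusted p = 0.432). The gain of Ndufaf1 (0.71 ± 0.43) came mainly from one library, Stag2-KO replicate 2, at rank 8824 against 28617 and 33434 in the other Stag2-KO libraries. The negative gains with the lowest p were −0.34 ± 0.52 at Ndufaf6 and −0.26 ± 0.53 at Ndufaf8.

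Complex II was the class with the highest median gain, 0.63, and all 4 of its genes had a positive one, none of which passed the test. Sdhb (chromosome 4, 140961271 to 140979198) ranked 22567, 20933 and 21418 in Stag2-WT and 8707, 13949 and 12536 in Stag2-KO. Its groups were well apart, with a gain of 0.91 ± 0.37 (limma adjusted p = 0.348). Sdha, the flavoprotein that oxidises succinate, ranked 18230, 20159 and 19585 in Stag2-WT and 6999, 17554 and 12899 in Stag2-KO (0.73 ± 0.42), also without overlap. The membrane anchor Sdhc had ranks of 9785, 5250 and 12491 in Stag2-WT and 6158, 3758 and 9107 in Stag2-KO (0.54 ± 0.57). The other anchor, Sdhd, had 7624, 15034 and 10400 in Stag2-WT and 6269, 14099 and 7591 in Stag2-KO (0.28 ± 0.50). Both anchors overlapped between groups, and each was better in Stag2-KO than in the Stag2-WT library of the same number in 3 of 3 pairs. The median rank of all genes was also better in Stag2-KO in each such pair. The labels do not pair libraries by number, here or below, and the share of all gene ends with such a pattern is not given.

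In complex III, 2 gains were positive and 6 negative, with a median of −0.12. Uqcrc1, a core protein, ranked 4228, 14236 and 5993 in Stag2-WT and 16486, 24144 and 7964 in Stag2-KO. It was worse in Stag2-KO than in the Stag2-WT library of the same number in 3 of 3 pairs, with overlap between groups and a gain of −1.05 ± 0.57 (limma adjusted p = 0.432). Uqcrh, the hinge protein, had −0.30 ± 0.37, and the largest positive gain was 0.26 ± 0.34 at Uqcr10. Uqcrfs1, the Rieske iron-sulfur protein, had 0.17 ± 0.40.

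In complex IV, 5 gains were positive and 6 negative, with a median of −0.02. Cox6a1 ranked 33441, 31180 and 27421 in Stag2-WT and 18463, 25329 and 24503 in Stag2-KO (0.44 ± 0.29). Cox4i1, which enters the complex early, ranked 30718, 33823 and 34805 in Stag2-WT and 24931, 28845 and 24023 in Stag2-KO (0.36 ± 0.27). Groups did not overlap at either. Cox7c ranked 3230, 14111 and 1517 in Stag2-WT and 10811, 19083 and 3087 in Stag2-KO, worse in Stag2-KO in 3 of 3 same-numbered pairs, with a gain of −1.07 ± 0.83 that was 0.73 with the share of intervals at gene ends as a covariate. Cox7b had −0.44 ± 0.24.

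Complex V had 9 positive and 7 negative gains and a median of 0.03. Atp5md, a small membrane subunit, ranked 4319, 9832 and 5979 in Stag2-WT and 2434, 5868 and 2716 in Stag2-KO (0.90 ± 0.64). Atp5g2 had a gain of 0.39 ± 0.37. Atp5k, the e subunit, ranked 6008, 11637 and 4101 in Stag2-WT and 9831, 15494 and 7738 in Stag2-KO (−0.68 ± 0.54), and Atp5l had −0.23 ± 0.26. All of these groups overlapped.

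Summit coverage gave fewer gains. Coverage was recovered from fold and p, put on a log2 scale and centred on each library's median, whereas the rank gains above were not centred. Centring the ranks alone changed the sign of 16 of 86 member gains, all from positive to negative, against 19.15% of all gene ends. How much of the difference between coverage and rank comes from centring was not tested. At an unadjusted p below 0.05 by limma, 2 of 83 members were higher and 14 lower in Stag2-KO, against 7.45% and 11.8% of 12972 gene ends, and none passed adjustment (lowest 0.234). The 2 higher members were Ndufa4 (0.60 ± 0.18) and Cox4i1 (0.36 ± 0.16). Among the lower ones were Atp5l (−0.79 ± 0.22), Cox7c (−0.62 ± 0.26) and Uqcrc1 (−0.58 ± 0.21). Sdhb had summit coverages of 497, 1321 and 602 in Stag2-WT and 1123, 1706 and 688 in Stag2-KO. Relative to the library medians, the coverage difference within complex II was 0.17 ± 0.12 at Sdhb, 0.09 ± 0.15 at Sdha, −0.04 ± 0.14 at Sdhc and −0.07 ± 0.10 at Sdhd. Over the 83 members, the sign by coverage differed from that of the rank gain at 32, and 28 of these went from positive to negative. The sign differed at 26.1% of all gene ends.

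Width was the readout that the ranking did not use, and intervals at member ends were mostly narrower in Stag2-KO. Of 83 members with an interval in all 6 lists, 3 were called narrower and 0 wider by limma at an adjusted p below 0.05, where 1.08% and 0.123% of 12972 gene ends were. With the replicate number as a block, 0 members and 0 gene ends in all were called. At an unadjusted p below 0.05 by limma, 18 members were narrower and 1 wider, against 12.7% and 1.09% of all gene ends. In the unblocked fit 70 of 83 members were narrower, against 70.4% of all gene ends. The median log2 width difference was −0.10 for members and −0.07 for all gene ends. This was not particular to the members. Intervals were narrower at 64 of 75 mitochondrial ribosomal genes (median −0.117) and 71 of 81 cytosolic ones (−0.117). They were also narrower at 33 of 39 assembly and insertion factors outside the symbol rule (−0.099). Median widths of the members were 869, 864 and 897 bp in Stag2-WT and 729, 773 and 779 bp in Stag2-KO. For all gene ends they were 815, 808 and 793 bp in Stag2-WT and 742, 782 and 731 bp in Stag2-KO.

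The called genes belong to 3 complexes. Atp5mpl (chromosome 12, 111961374 to 111967009), a small proteolipid subunit of complex V, had widths of 933, 912 and 926 bp in Stag2-WT and 729, 698 and 731 bp in Stag2-KO, a log2 difference of −0.36 ± 0.04 (limma adjusted p = 0.0267). Ndufv3 (chromosome 17, 31520115 to 31531326), an accessory subunit near the NADH site of complex I, had 917, 867 and 934 bp in Stag2-WT and 678, 706 and 701 bp in Stag2-KO (−0.38 ± 0.05, limma adjusted p = 0.0333). Uqcrq (chromosome 11, 53427922 to 53430831), the ubiquinone-binding small subunit of complex III, had 1400, 1331 and 1321 bp in Stag2-WT and 1113, 1085 and 1093 bp in Stag2-KO (−0.30 ± 0.04, limma adjusted p = 0.0333). The groups were far apart at each, whereas their ranks overlapped. Ndufv3 and Uqcrq share their end with Wdr4 and Gdf9.

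The number of width calls changed when any single library was left out, which also leaves fewer libraries in 1 group. No member was called narrower without Stag2-KO replicate 1, Stag2-WT replicate 1 or Stag2-WT replicate 3, and 1 was without Stag2-KO replicate 2. Without Stag2-KO replicate 3, 10 members were narrower and 0 wider, against 4.73% and 1.79% of all gene ends. Without Stag2-WT replicate 2, 4 were narrower and 1 wider, against 3.26% and 1.09%. Without Stag2-KO replicate 1, the library whose list began at the stricter p, the differences at Atp5mpl, Ndufv3 and Uqcrq were −0.37, −0.36 and −0.31, with limma adjusted p of 0.119, 0.158 and 0.141. The next members in order of p were Ndufb8 (−0.30 ± 0.04, limma adjusted p = 0.0568) and Ndufa12 (−0.37 ± 0.05, limma adjusted p = 0.0682), named here after their values were seen. All 4 genes of complex II were narrower, the most significant being Sdha at 1192, 1017 and 1024 bp in Stag2-WT and 826, 724 and 815 bp in Stag2-KO (−0.45 ± 0.09, limma adjusted p = 0.160).

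**Figure D5:**
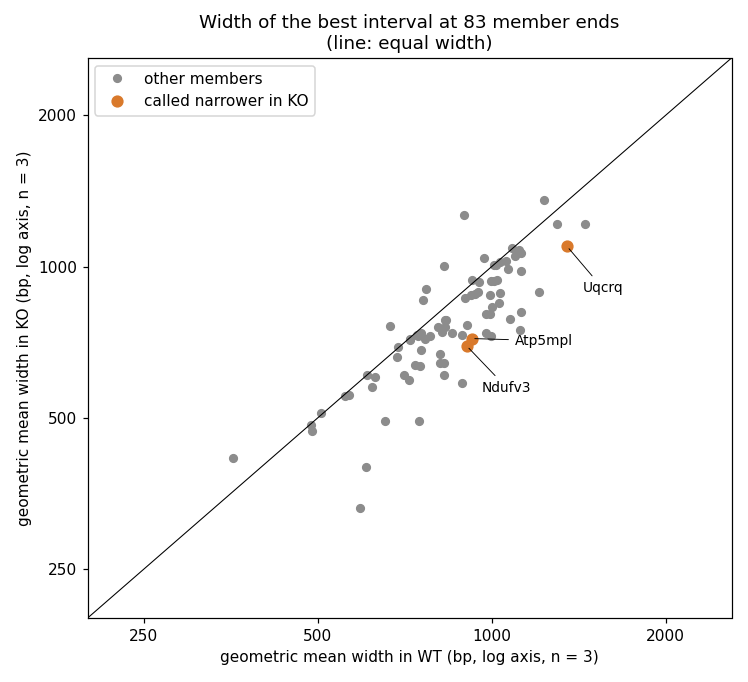
Geometric mean width in base pairs of the best interval in Stag2-KO (y axis) against Stag2-WT (x axis), both log axes, n = 3 libraries each, for the 83 members with an interval in all 6 lists. Of the points, 70 lie below the line of equal width, and the 3 called members (orange) are Atp5mpl, Ndufv3 and Uqcrq.

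Related gene lists were read from the same fit, and no gene of any of them was called in rank. Of 40 assembly and insertion factors that the symbol rule did not take (Coa1 was not matched), 37 were open in all libraries (92.5%), and 26 gains were positive and 13 negative with a median of 0.23. The smallest p there belonged to Ttc19, a complex III assembly factor, at 52395, 62781 and 62695 in Stag2-WT and 26917, 37072 and 41971 in Stag2-KO (0.77 ± 0.25, limma adjusted p = 0.317). Among negative gains it belonged to Ecsit (−1.035 ± 0.99, limma adjusted p = 0.666), whose groups overlapped. Of 17 regulators, 14 were open, with a median gain of 0.13. Polg2, the accessory subunit of the mitochondrial DNA polymerase, ranked 14458, 20088 and 16040 in Stag2-WT and 2889, 8342 and 8350 in Stag2-KO (1.51 ± 0.52, limma adjusted p = 0.320), at an end shared with Ddx5. The negative gain of lowest p among regulators was at Polg (−0.94 ± 0.60, limma adjusted p = 0.501), with an interval in 3 lists. The regulator Nrf1 ranked 28715, 26645 and 28492 in Stag2-WT and 9708, 21741 and 24820 in Stag2-KO (0.69 ± 0.38, limma adjusted p = 0.440). Nrf1 is named here although its p was not the lowest among the regulators. Esrra, Yy1, Ppargc1a, Gabpa and Gabpb2 overlapped between groups, and Gabpb1 had no interval at its span ends in any list. Of 12 citrate cycle genes 10 were open (median gain 0.21), and of 4 carriers and inhibitors 2 were (0.23). Median gains were 0.16 for mitochondrial and 0.05 for cytosolic ribosomal genes. The smallest p in the mitochondrial set was at a negative gain, Mrpl22 (−1.15 ± 0.34, limma adjusted p = 0.298), without overlap. Its positive gain of lowest p was Mrpl2 (0.69 ± 0.28, limma adjusted p = 0.347). In the cytosolic set these were Rpl17 (−1.78 ± 0.59, limma adjusted p = 0.317), with overlap, and Rps16 (1.19 ± 0.41, limma adjusted p = 0.320).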

How the data were processed

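ATAC-seq peak lists of 3 Stag2-WT and 3 Stag2-KO libraries were used as deposited. Build mm10 and DiffBind are named in the submitters' processing notes. Neither an aligner nor a peak caller is named (not given in the sources used here). Per the file names a p limit of 0.01, a cap of 300000 peaks and a filtered region list were applied. Each deposited interval has a fold over local background (a linear ratio), a −log10 p, and a summit position as an offset in bases. Depth in reads is unknown. Summit coverage was computed from the deposited fold and −log10 p under a Poisson model (all 84592 values gave whole reads within 0.002 of the −log10 p).

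Distinct intervals were ranked by fold within each library, and the best 100000 were kept. Gene spans, start sites and promoters came from RefSeq (GRCm38.p6). Each of 21887 protein-coding genes was scored at the span end, within 1 kb, whose −log2 rank, averaged over 6 libraries, was better. Gene ends with an interval in at least 3 lists were tested with limma 3.58.1 (eBayes with trend, Benjamini-Hochberg over all gene ends, threshold 0.05, R 4.3.3), and log2 widths likewise for ends with an interval in all 6 lists. Scripts were tested on simulated data. Python 3.11.15, pandas 2.3.3, NumPy 2.4.6 and SciPy 1.17.1 were used.

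Samples were grouped by the genotype label. Same-numbered libraries of the 2 genotypes deviated together over gene ends (correlations of 0.18, 0.73 and 0.47, although Stag2-WT 1 with Stag2-KO 3 gave 0.50), and each was over 0.1, so a fit with the replicate number as a block is given where it changes a call or a count. This pairing comes from the data, and the labels give only the numbers. Alternatives were list length, window, ranking by p, linear or centred ranks, the gene-end share as a covariate, filters, summit coverage and leaving out each library. Scoring at start sites, and leaving out libraries for the count of open members, were added after the data were seen.

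The members and lists were chosen with earlier results of these data known. Named members were those called, per class the 2 positive and 2 negative gains of lowest p, the strongest and weakest per class, those without an interval, and the isoform sets. 1 member is counted in the totals but not reported here by name.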

Additional observations from a re-analysis of the deposited data

How the results depend on the processing

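No member was called in rank under any of the settings tried, and the lowest adjusted p by limma was 0.0543 (without Stag2-KO replicate 3). The number of all gene ends called higher in Stag2-KO (3) was 1 with the best 140000 intervals, the gene-end share as a covariate, linear ranks, start sites, summit coverage or a window of 2 kb, 0 with centred libraries or no filter, 5 with ranking by p, and 0 to 560 leaving out each library. The number called lower (7) was 0 with the covariate, 4 with centred libraries, linear ranks or 2 kb, 2 with no filter, start sites or summit coverage, and 1 to 127 leaving out each library, with both highest counts without Stag2-KO replicate 3. Without Stag2-WT replicate 2 they were 152 and 112. For width, the replicate block, which pairs libraries of the same number, called 0 members and 0 gene ends narrower and 0 wider. Leaving out each library gave 0 to 10 members narrower and 0 to 1 wider, and 47 to 613 gene ends narrower (140 with all libraries) and 6 to 232 wider (16). The window of 500 bp gave 8 wider. The number of open members, 79, was 52 with the best 25000. Among the 86 members, 36 gains changed sign with the covariate, 32 of 83 by coverage, 16 with centred libraries, 15 of 85 by p and 3 to 19 leaving out each library. Over all gene ends the shares in the same order were 41.2%, 26.1%, 19.15%, 13.9% and 6.05 to 14.5%. Of the members named for their gain, those that changed sign were Ndufaf1 (−0.33 with the covariate, −0.057 by coverage), Ndufaf8 (−0.72 to 0.21 leaving out each library, positive without Stag2-KO replicate 2 or Stag2-WT replicate 1), Uqcr10 (−0.24 by p, −0.36 by coverage), Uqcrfs1 (−0.025 with the covariate, −0.052 centred), Uqcrh (0.12 with the covariate, −0.67 to 0.017 leaving out each library, positive without Stag2-WT replicate 1), Cox7c (0.73 with the covariate), Sdhc (−0.21 with the covariate, −0.044 by coverage), Sdhd (−0.067 by coverage), Ndufa5 (−0.028 with the covariate) and Atp5g2 (−0.029 by coverage). The cause of these changes was not tested. The replicate block changed no other call. Depth in reads is unknown, so weak members cannot be told from members below detection.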
